A study of Schizosaccharomyces pombe with 17 samples.

Results

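Of 1541 annotated long noncoding RNA (lncRNA) features of the fission yeast Schizosaccharomyces pombe, 368 were listed as abundant in wild type cells. Their listed values stayed near the wild type level in mutants of the nuclear RNA exosome. These 368 features are called members here. Reads of a feature and of a coding gene opposite it cannot be told apart with these values, so they are listed levels only. A feature was a member if its wild type mean reached 20 FPKM, a fragment count corrected for transcript length and library size, and if its log2(mean FPKM + 1) lay within 1 unit of wild type in the libraries labelled rrp6Δ, in rrp6-cat, in dis3-4 at 30 °C and in rrp6-cat dis3-4 at 30 °C. SPNCRNA.103 was left out by the rule. The members were thus chosen by their measured FPKM in those 5 groups, and differences of those 4 mutant groups from wild type are given as a description with no test. The deposited table held 7027 features in all. At 20 FPKM or more in wild type there were 571 lncRNAs, of which 203 lay outside the fold limit, and 970 lncRNAs were under 20 FPKM.

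The nuclear exosome is a protein complex that degrades and trims RNA from its free 3′ end, and Rrp6 and Dis3 are its exonucleases. In growing fission yeast it is known to remove many noncoding and antisense transcripts and, with the RNA-binding protein Mmi1, the messages of meiotic genes. Many annotated lncRNAs of this yeast run antisense to a protein-coding gene.

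The 14 libraries of polyA-selected RNA formed 7 groups of 2. The libraries labelled rrp6Δ (a deletion by their label), those of rrp6-cat (an rrp6 allele that the labels do not describe further) and wild type were grown at 32 °C in YES, a rich medium. The temperature-sensitive dis3-4 strain and the double mutant rrp6-cat dis3-4 were sampled at 23 °C and 1 h after a move to 30 °C. Each genotype is 1 named strain, and nothing in the labels says whether strains share a parent or replicates came from separate cultures, so p-values measure only the spread between these libraries. Wild type has no 23 °C or 30 °C libraries, so genotype and temperature cannot be told apart where a dis3-4 strain is set against it.

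In the libraries labelled rrp6Δ the gene rrp6 had 179 and 128 FPKM, against 95.4 and 43.2 FPKM in wild type, so it was no lower there and the label is used only as a name. The meiotic mRNA of spo5, an RNA-binding protein of meiosis, had 687 and 626 FPKM in the libraries labelled rrp6Δ and 3.97 and 0.981 FPKM in wild type. Read totals were not given in the sources used here, and summed FPKM per library ran from 618712 to 842245. Wild type replicate 2 had the lowest sum and the fewest features at 1 FPKM or more, 5619, against 5849 to 6017 in the other libraries. The steps between its lowest FPKM put its depth at an estimated 0.245 times that of wild type replicate 1. That estimate rests on 129 low features and includes the scaling of the values. Wild type replicate 2 is called shallow below on this basis. It enters every comparison with wild type, and it held the lowest of the 14 values for 119 of the 368 members.

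The members spanned a wide range of abundance. Their wild type means ran from 20.2 to 1086 FPKM with a median of 39.5 FPKM, and 48 members reached 100 FPKM while 9 reached 500 FPKM. Together they held 3.38% to 4.17% of the summed FPKM of a library.

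**Figure D1:**
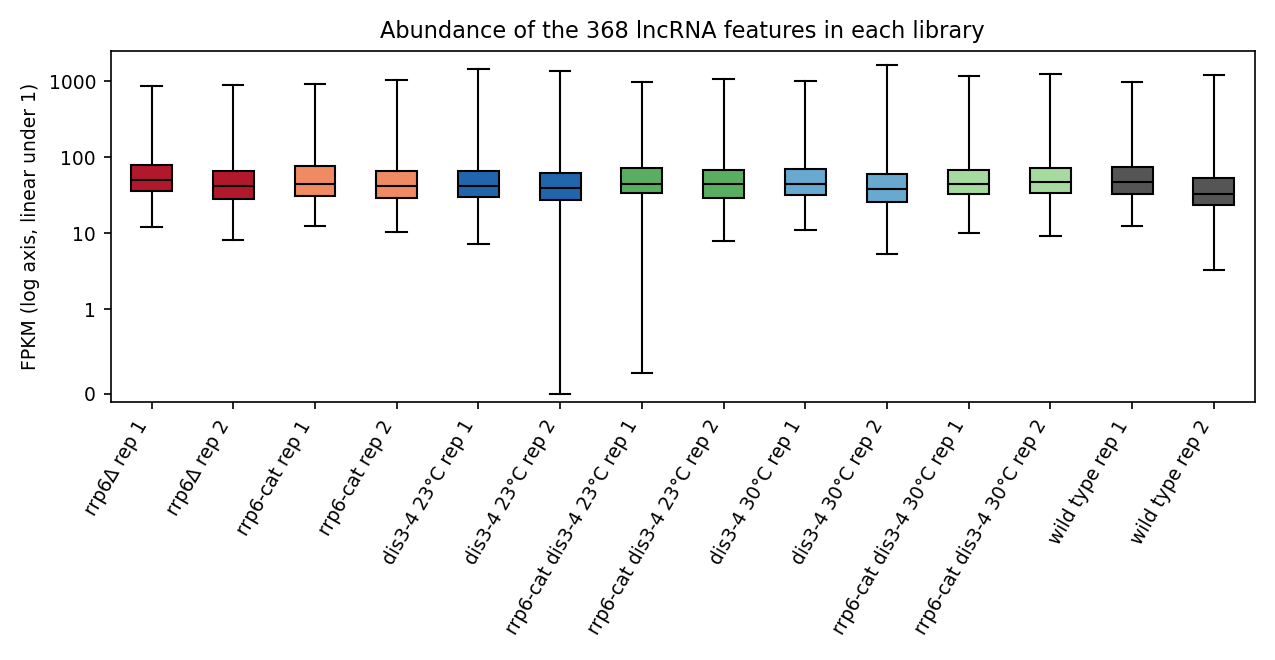
FPKM of the 368 members in each of the 14 polyA libraries on a log axis that is linear under 1 FPKM, with boxes for the quartiles, a line for the median and whiskers to the lowest and highest member. The medians lie between 32.9 FPKM in wild type replicate 2 and 50.1 FPKM in replicate 1 of the libraries labelled rrp6Δ.

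The 10 members with the highest wild type mean ran from 412 to 1086 FPKM, and 9 of them lay opposite a coding gene of translation or protein folding. The strand was kept by the library kit, but its use in counting was not given in the sources used here, so reads of a member and of the gene opposite it cannot be told apart with these values. SPNCRNA.826 (chromosome I), antisense to cpc2, which encodes a scaffold protein of the ribosome, had 614 and 668 FPKM in the libraries labelled rrp6Δ, 917 and 985 in rrp6-cat, 998 and 1113 in dis3-4 at 23 °C, 766 and 851 in rrp6-cat dis3-4 at 23 °C, 823 and 1057 in dis3-4 at 30 °C, 896 and 1173 in rrp6-cat dis3-4 at 30 °C, and 985 and 1187 FPKM in wild type. Both libraries labelled rrp6Δ were below the others.

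SPNCRNA.1465 (chromosome II), antisense to the ribosomal protein gene rps1601, had 722 and 890 FPKM in the libraries labelled rrp6Δ, 670 and 1022 in rrp6-cat, 1201 and 1163 in dis3-4 at 23 °C, 985 and 1059 in rrp6-cat dis3-4 at 23 °C, 996 and 1305 in dis3-4 at 30 °C, 1150 and 1241 in rrp6-cat dis3-4 at 30 °C, and 744 and 891 FPKM in wild type. The groups grown at 32 °C overlapped one another, and all 8 libraries of the dis3-4 strains were above both of wild type. None of those differences at 23 °C passed the test described further on.

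SPNCRNA.53 (prl53, chromosome I) was the exception among the 10, since its annotation holds a coding gene on its own strand, SPAC27E2.11c, and none on the opposite strand. It had 501 and 879 FPKM in the libraries labelled rrp6Δ, 468 and 559 in rrp6-cat, 1424 and 1338 in dis3-4 at 23 °C, 643 and 657 in rrp6-cat dis3-4 at 23 °C, 972 and 1646 in dis3-4 at 30 °C, 675 and 748 in rrp6-cat dis3-4 at 30 °C, and 486 and 1115 FPKM in wild type. The dis3-4 libraries at 23 °C were above both of wild type, with a log2 difference of 0.91 (SE 0.38) that did not pass (limma adjusted p = 0.229). SPAC27E2.11c lies almost wholly within it, with 94.3% of its length, and averaged 539 FPKM in wild type, and fragments of the pair cannot be told apart by strand.

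The remaining 7 were SPNCRNA.1030, SPNCRNA.1103, SPNCRNA.625, SPNCRNA.1261, SPNCRNA.741, SPNCRNA.1594 and SPNCRNA.639. SPNCRNA.1103, antisense to the ribosomal protein gene rpl902, varied least of these, between 563 FPKM in replicate 2 of the libraries labelled rrp6Δ and 888 FPKM in wild type replicate 2. SPNCRNA.639, antisense to the mitochondrial chaperonin gene mcp60, lay near the fold limit. It had 207 and 212 FPKM in the libraries labelled rrp6Δ, against 435 and 389 FPKM in wild type, a difference of the log2 group means of -0.97. Wild type replicates often differed more than groups did: SPNCRNA.1594, antisense to the ribosomal protein gene rpl1801, had both its lowest and its highest value in wild type, 344 and 719 FPKM.

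The other members with a gene symbol were SPNCRNA.05 (prl5), SPNCRNA.14 (prl14) and SPNCRNA.25 (prl25). SPNCRNA.25 (chromosome II) lies whole within atp7, a gene of the mitochondrial ATP synthase, on the opposite strand. It had 281 and 95.5 FPKM in the libraries labelled rrp6Δ, 441 and 205 in rrp6-cat, 218 and 196 in dis3-4 at 23 °C, 217 and 186 in rrp6-cat dis3-4 at 23 °C, 155 and 241 in dis3-4 at 30 °C, 176 and 228 in rrp6-cat dis3-4 at 30 °C, and 376 and 187 FPKM in wild type. The replicates of the 3 groups grown at 32 °C were far apart, and those groups overlapped one another. SPNCRNA.05, opposite mug121, ranged from 21.6 to 57.2 FPKM over the 14 libraries, and SPNCRNA.14, opposite the splicing factor gene ntr1, ranged from 19.8 to 81.4 FPKM.

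The spread around wild type was set by the rule and is given as a description. The largest of a member's 4 differences from wild type had a median size of 0.56 on the log2 scale, and 146 members kept all 4 within 0.5. The median difference over the 368 members was 0.13 in the libraries labelled rrp6Δ, 0.08 in rrp6-cat, -0.02 in dis3-4 at 30 °C and 0.17 in rrp6-cat dis3-4 at 30 °C. Over the 3869 features of at least 20 FPKM in wild type the medians were 0.05, 0.05, -0.18 and 0.03 in the same groups. In all 4 groups 99 members were above wild type, and 51 were below it in all 4.

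The share of abundant features that stayed within the fold limit was lower for lncRNAs than for coding genes. It was 64.4% of lncRNAs (368 of 571) and 80.4% of protein-coding genes (2628 of 3269), and 77.5% of all features (2999 of 3869). The rule used these values, so the shares have no test.

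The members nearest the limits show how sharp the choice is. Just inside the fold limit were SPNCRNA.800 at 1.00, SPNCRNA.1680 at 0.99 and SPNCRNA.640 at 0.99, all in rrp6-cat dis3-4 at 30 °C. Just outside it were SPNCRNA.712 at -1.01 in dis3-4 at 30 °C, SPNCRNA.1376 at -1.01 in the libraries labelled rrp6Δ and SPNCRNA.920 at 1.01 in dis3-4 at 30 °C. SPNCRNA.559 and SPNCRNA.1168 lay just above the level limit at 20.2 and 20.3 FPKM in wild type, and SPNCRNA.790 and SPNCRNA.924 just under it at 19.9992 and 19.96 FPKM. SPNCRNA.924 was listed at 39.9 FPKM in wild type replicate 1 and at 0 in wild type replicate 2.

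The 5 members whose group means moved least were SPNCRNA.1624, SPNCRNA.685, SPNCRNA.999, SPNCRNA.803 and SPNCRNA.1574, with a largest difference of 0.12 to 0.15 on the log2 scale. SPNCRNA.999 (chromosome I), opposite rpn10, a gene of the proteasome, had 139 and 144 FPKM in the libraries labelled rrp6Δ, 97.8 and 159 in rrp6-cat, 130 and 142 in dis3-4 at 30 °C, 122 and 153 in rrp6-cat dis3-4 at 30 °C, and 87.0 and 170 FPKM in wild type. SPNCRNA.1624, which overlaps no coding gene, had 22.7 and 19.6 FPKM in the libraries labelled rrp6Δ and 35.5 and 10.6 FPKM in wild type. Small differences between means thus stood beside wild type replicates that were far apart. Over all members the replicates of wild type differed by a median of 0.61 on the log2 scale, and those of the 6 mutant groups by medians of 0.21 to 0.37. Wild type replicate 1 was the higher of the pair for 276 of the 368 members.

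Most members shared a coding gene on the other strand. Of the 365 members found in the reference annotation, 344 (94.2%) overlapped a protein-coding gene on the opposite strand. Among abundant lncRNAs outside the fold limit this was 132 of 188 (70.2%), and among lncRNAs under 20 FPKM it was 372 of 890 (41.8%). The classes rest on listed FPKM, in which reads of a feature and of the gene opposite it cannot be told apart. Overlap was taken from RefSeq gene models of build ASM294v3, since the deposited table gives no coordinates and the authors' annotation, named only as build ASM294v2, is not used here. SPNCRNA.113, SPNCRNA.559 and SPNCRNA.578 had no match.

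**Figure D2:**
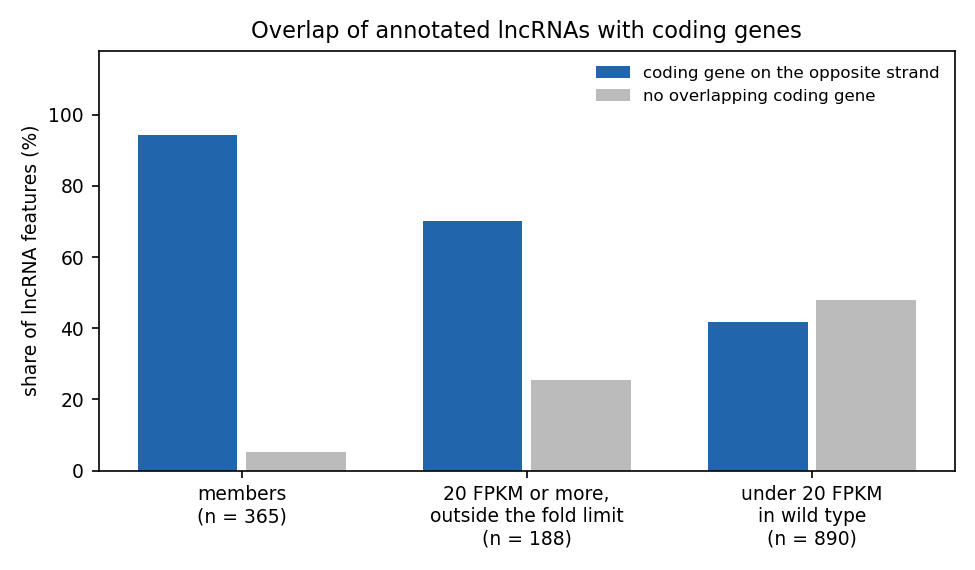
Share in percent of lncRNA features with a coding gene on the opposite strand (blue) and with no overlapping coding gene (grey), for members, abundant lncRNAs outside the fold limit and lncRNAs under 20 FPKM in wild type. The blue bars stand at 94.2%, 70.2% and 41.8%, and the grey bars at 5.21%, 25.5% and 48.0%.

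The overlap was usually deep. The largest opposite gene covered a median of 85.2% of a member's length, and 164 members held an opposite coding sequence whole. A coding gene on the same strand was overlapped by 44 members, of which 42 also had one on the opposite strand. Members were longer, with a median of 1394 bases against 1222 bases for abundant lncRNAs outside the fold limit and 858.5 bases for those under 20 FPKM. Their GC content had a median of 36.5%, against 36.0% and 33.7%. On chromosomes I, II and III lay 174, 131 and 60 members.

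Most counts of motif letters differed little between the classes. The hexamer TNAAAC, the letters of the motif that Mmi1 binds, was counted on the lncRNA strand. It occurred 1.87 times per kb in members, 1.99 in abundant lncRNAs outside the fold limit and 2.07 in those under 20 FPKM. No hexamer stood in 37 members (10.1%), against 17.0% and 21.8% of the other classes, whose median lengths are shorter. TATAAA or TATATA stood on either strand of the 300 bases around the annotated start (250 before and 50 after) in 51.8% of members, 57.4% of abundant lncRNAs outside the fold limit and 55.8% of those under 20 FPKM. AATAAA stood in the last 100 bases, on the lncRNA strand, in 26.8%, 22.3% and 23.6% of these classes. These are counts of letters, not of sites in use.

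Coding genes whose coding sequence lay inside a member on the opposite strand were mostly listed near 0. Of 172 such genes, 140 (81.4%) had a wild type mean under 1 FPKM, and 114 were under 1 FPKM in all 14 libraries. Where the gene lay opposite a member but not wholly inside it, 28 of 264 (10.6%) were under 1 FPKM. The same held for lncRNAs that are no members, with 125 of 139 (89.9%) of coding genes inside one under 1 FPKM and 45 of 389 (11.6%) of those not wholly inside. Of 4143 coding genes with no lncRNA of the table on the opposite strand, 252 (6.08%) were under 1 FPKM. So the pattern followed the overlap and was not particular to the members. Over the 440 pairs of a member and an opposite coding gene, the coding gene was the lower of the pair in wild type in 386 (87.7%). It was the lower in 79.4% of such pairs for abundant lncRNAs outside the fold limit and in 53.1% for lncRNAs under 20 FPKM. The level limit in part fixes this order for the abundant lncRNAs. In 171 of the 440 (38.9%) the coding gene was under 1 FPKM, beside 38.7% and 31.0% in the other classes in the same order. FPKM are per length, but the reads of a pair cannot be told apart and a 0 can be a failed estimate, so this is the order of the listed values only.

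**Figure D3:**
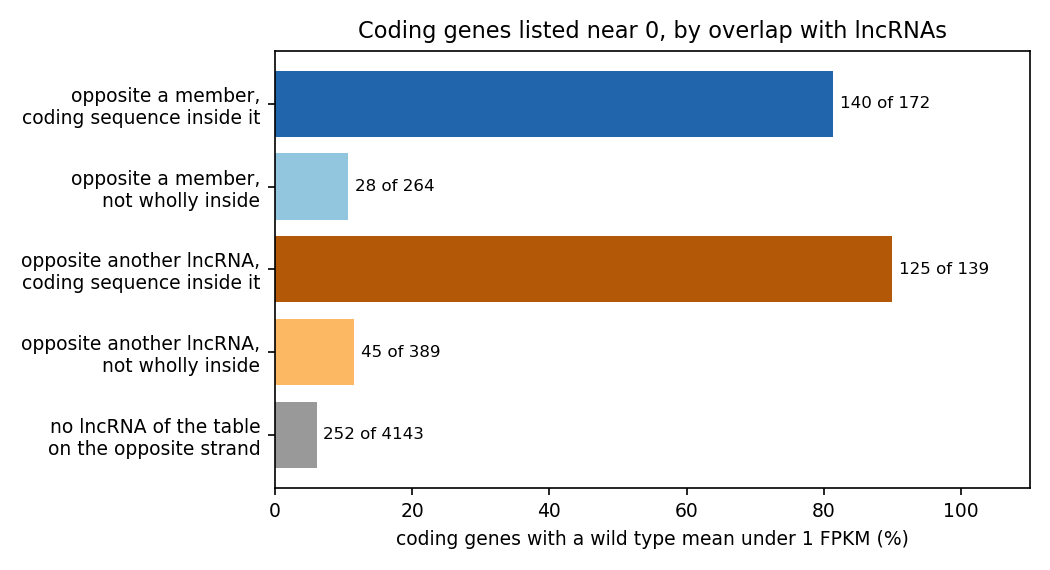
Share in percent of coding genes with a wild type mean under 1 FPKM, by overlap with lncRNAs on the opposite strand, with the counts beside each bar. Genes whose coding sequence lies inside an lncRNA stand at 81.4% for members and 89.9% for other lncRNAs, and the remaining classes at 6.08% to 11.6%.

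Several of the genes listed at 0 are ones that growing cells need. The gene cct5, which encodes a subunit of the chaperonin that folds actin and tubulin, was listed at 0 in all 14 libraries, while SPNCRNA.730 opposite it had 119 to 181 FPKM. The proteasome gene rpt5, opposite SPNCRNA.908, was listed at 0 in 11 libraries and reached at most 1.52 FPKM. The pseudouridine synthase gene cbf5 was at 0 in all 14, with SPNCRNA.1051 opposite at 114 to 308 FPKM. An exact 0 in such a table can be a failed estimate, so these zeros show only how the genes were listed.

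The listing differed between gene families, which were picked after the values were seen. The families were sets of gene symbols with the same letters, so they can hold genes of other kinds. Of the genes opposite a member, 0 of 4 in the translation factor set and 2 of 7 in the ribosome biogenesis set were under 1 FPKM. In the proteasome set it was 1 of 2. The ribosome biogenesis set also held rrp46, a core subunit gene of the exosome. Those under 1 FPKM were cbf5, rrp15 and rpt5. They were also the only ones of these genes whose coding sequence lay inside a member, so family and overlap go together here. Of the 141 genes measured with a symbol of ribosomal protein form (rpl, rps or rpp and a number), 11 lay opposite a member. Of these 11, 6 were under 1 FPKM: rpl902, rps2601, rps20, rpl1002, rps1101 and rps1102. Of the 9 whose coding sequence lay inside a member, the other 3 were rps1601 at 79.8 FPKM, rpl2702 at 64.9 FPKM and rpl1801 at 11.9 FPKM. Of 127 with no lncRNA opposite, 2 were under 1 FPKM and the median was 1613 FPKM. Of 7 sister copies with no lncRNA opposite, 6 had a wild type mean between 928 FPKM (rps2602) and 2381 FPKM (rpl901). The exception was rpl1802, at 13.4 FPKM, near the level of rpl1801.

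The pair rps1101 and rps1102, each the only sister of the other in the table, were both listed at 0 in all 14 libraries. SPNCRNA.870 opposite rps1101 had 208 and 160 FPKM in the libraries labelled rrp6Δ, 290 and 237 in rrp6-cat, 237 and 203 in dis3-4 at 23 °C, 136 and 215 in rrp6-cat dis3-4 at 23 °C, 193 and 214 in dis3-4 at 30 °C, 307 and 199 in rrp6-cat dis3-4 at 30 °C, and 362 and 159 FPKM in wild type. SPNCRNA.1015 opposite rps1102 had between 275 FPKM in wild type replicate 2 and 448 FPKM in replicate 2 of dis3-4 at 23 °C. No mutant group of SPNCRNA.870 lay wholly above or below both wild type libraries.

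The first 60 bases of 4 of these coding sequences are shown on both strands, because they show that the lncRNA strand and the mRNA are reverse complements over the same stretch. The capitals mark the start codon, ATG on the coding strand and its complement CAT on the lncRNA strand. All are written 5′ to 3′ from RefSeq build ASM294v3. The genes cct5, rps1101 and rps1102 lie on chromosome I, cct5 on the minus strand and the others on the plus strand, and hhf3, a histone H4 gene, lies on the plus strand of chromosome II.
cct5: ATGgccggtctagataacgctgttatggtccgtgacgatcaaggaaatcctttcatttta
SPNCRNA.730: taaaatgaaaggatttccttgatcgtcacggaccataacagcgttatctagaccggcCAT
hhf3: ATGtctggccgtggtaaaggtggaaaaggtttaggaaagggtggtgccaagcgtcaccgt
SPNCRNA.1611: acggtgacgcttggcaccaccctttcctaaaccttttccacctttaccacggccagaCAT
rps1101: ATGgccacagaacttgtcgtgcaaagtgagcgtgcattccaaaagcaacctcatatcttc
SPNCRNA.870: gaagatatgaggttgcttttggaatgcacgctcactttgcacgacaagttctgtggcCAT
rps1102: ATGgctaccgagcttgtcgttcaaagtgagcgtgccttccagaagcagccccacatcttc
SPNCRNA.1015: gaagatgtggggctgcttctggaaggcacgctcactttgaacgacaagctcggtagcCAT
The start regions of rps1101 and rps1102 shared 51 of the 60 bases shown. Reads from near-identical copies may be split or moved between them by the counting, and that was not tested.

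Genes with symbols of histone form, hh or ht with a letter and a number, showed the same listing. Those letters can take in genes of other kinds. Of 15 such genes 2 lay opposite a member, the histone genes hhf3 and hta1. Both were listed at 0 in all 14 libraries, while 0 of 11 such genes with no lncRNA opposite were under 1 FPKM. SPNCRNA.1611 opposite hhf3 had 229 and 187 FPKM in the libraries labelled rrp6Δ, 349 and 338 in rrp6-cat, 125 and 243 in dis3-4 at 23 °C, 302 and 360 in rrp6-cat dis3-4 at 23 °C, 299 and 122 in dis3-4 at 30 °C, 344 and 376 in rrp6-cat dis3-4 at 30 °C, and 286 and 305 FPKM in wild type. Both libraries labelled rrp6Δ, both of dis3-4 at 23 °C and replicate 2 of dis3-4 at 30 °C were below both of wild type. The sister genes hhf1 and hhf2 encode histone H4 too, and had wild type means of 405 and 209 FPKM. Over the 14 libraries hhf1 was never below 108 FPKM, nor hta2, the sister of hta1, below 113 FPKM.

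Other members lay opposite genes that were well expressed in the table. The gene cpc2 averaged 1635 FPKM in wild type and was above SPNCRNA.826 in all 14 libraries. The translation initiation factor gene sum1 had 222 to 414 FPKM and was above SPNCRNA.1076 in all 14 libraries. The ribosomal protein gene rpl2001 averaged 556 FPKM beside 544 FPKM for SPNCRNA.741. The elongation factor gene tef102, at 92.9 to 284 FPKM, was below SPNCRNA.957 in all 14. In each of these 4 pairs the coding sequence did not lie wholly inside the lncRNA.

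**Figure D4:**
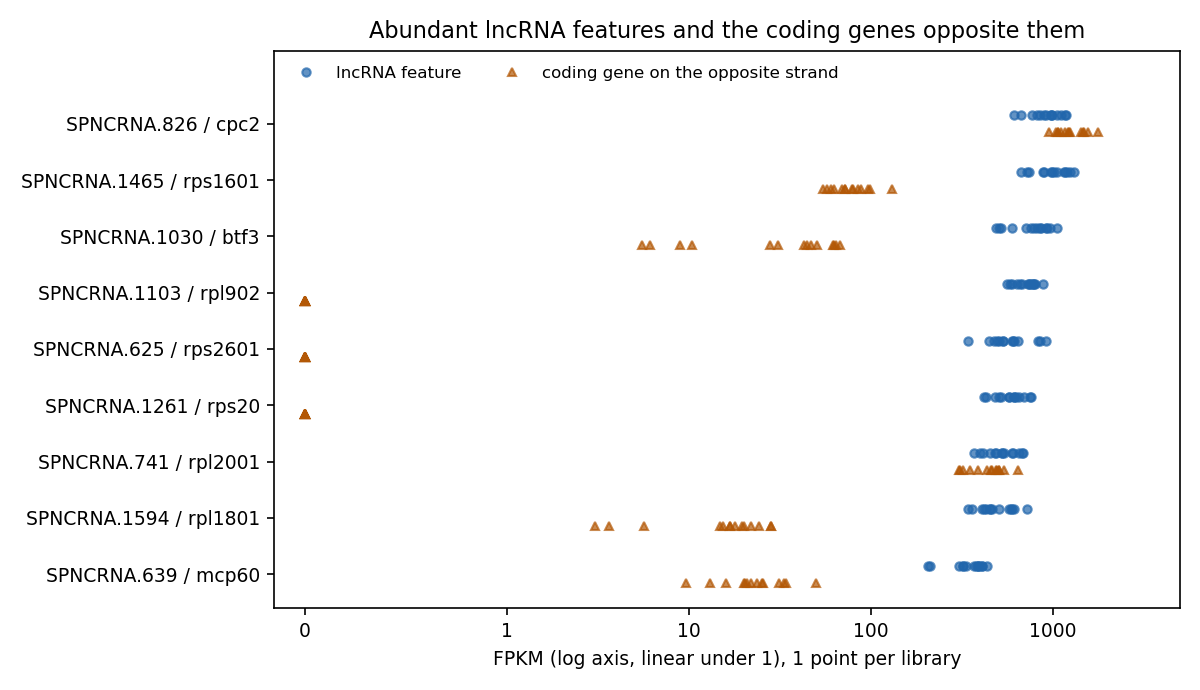
FPKM in each of the 14 libraries for 9 of the 10 most abundant members (blue circles) and a coding gene opposite each (brown triangles), on a log axis that is linear under 1 FPKM. The genes rpl902, rps2601 and rps20 sit at or near 0, cpc2 and rpl2001 lie beside their lncRNAs, and the other 4 coding genes lie below.

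Members with no overlapping coding gene were few, 19 of 365 (5.21%). They ranged in wild type mean from 20.6 FPKM for SPNCRNA.1159 to 53.6 FPKM for SPNCRNA.59, so none was among the most abundant. SPNCRNA.945 lies upstream of pma1, the gene of the plasma membrane proton pump, on the same strand, and had a wild type mean of 40.1 FPKM. SPNCRNA.935 (chromosome I), between rpl1002 and per1, had 12.9 and 10.8 FPKM in the libraries labelled rrp6Δ, 15.0 and 15.9 in rrp6-cat, 15.2 and 12.1 in dis3-4 at 23 °C, 33.0 and 32.6 in rrp6-cat dis3-4 at 23 °C, 13.8 and 17.7 in dis3-4 at 30 °C, 36.7 and 38.6 in rrp6-cat dis3-4 at 30 °C, and 13.0 and 35.7 FPKM in wild type. Its wild type replicates spanned the low and the high groups. It was singled out after its values were seen.

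The 23 °C groups were not used to choose the members, but the wild type libraries were. The tests of the 23 °C groups against wild type, and each of the 8 calls from them, thus draw in part on values that the rule used, and they support nothing further about the members. All 368 members passed the filter of a mean of 1 FPKM over the 14 libraries, as the level limit ensures. In dis3-4 at 23 °C 1 member of 368 was called against wild type (limma, Benjamini-Hochberg adjusted p under 0.05). Of all 6083 tested features 5.11% were called, 4.39% higher and 0.723% lower. An unadjusted limma p under 0.05 was found for 29 of the 368 members and 1095 of the 6083 features. The median difference was 0.02 on the log2 scale over the members and 0.02 over all features. In rrp6-cat dis3-4 at 23 °C 7 members were called against wild type, 3 higher and 4 lower. Of all features 11.8% were called there, 9.42% higher and 2.38% lower. The unadjusted limma p was under 0.05 for 49 of the 368 members and 1598 of the 6083 features. The medians there were 0.09 over members and 0.15 over all features. Low shares are in part fixed by the rule, which kept features near the same wild type libraries in 4 other groups, 2 of them the same strains at 30 °C. With only the compared groups in the fit all 8 calls were lost. With 1 library left out, the counts ran from 0 to 33 in dis3-4 and from 0 to 57 in rrp6-cat dis3-4, both highest without wild type replicate 1.

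SPNCRNA.1159 (chromosome III) fell in dis3-4 at 23 °C. It had 7.20 and 3.34 FPKM there, against 23.8 and 17.5 FPKM in wild type, a log2 difference of -1.84 (SE 0.386, limma adjusted p = 0.0167). Its 2 low libraries were below the other 12, which ran from 12.1 to 33.5 FPKM. Its wild type mean of 20.6 FPKM was just above the level limit. At 30 °C the same strain had 22.4 and 25.2 FPKM, but the rule required that group to be near wild type, so nothing is read from the step between the temperatures. It overlaps no coding gene and lies between tal1, the transaldolase gene, and SPCC1020.07. Without replicate 2 of dis3-4 at 23 °C the call was lost (adjusted p = 0.142).

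Of the members that rose in rrp6-cat dis3-4 at 23 °C, SPNCRNA.134 lies opposite fhn1, a gene of a plasma membrane protein. It had 175 and 150 FPKM, against 96.2 and 49.9 FPKM in wild type, a log2 difference of 1.22 (SE 0.299, limma adjusted p = 0.0224). SPNCRNA.1135, opposite ssl1, a gene of the transcription factor TFIIH, had 54.4 and 53.9 FPKM against 29.5 and 18.7 FPKM in wild type (1.17, SE 0.324, limma adjusted p = 0.0371). SPNCRNA.1428, opposite sqs1, had 112 and 86.9 FPKM against 62.0 and 36.8 FPKM (1.03, SE 0.269, limma adjusted p = 0.0295). The opposite gene fhn1 was above wild type there too, at 135 and 114 FPKM against 54.4 and 64.8 FPKM. The libraries of ssl1 overlapped, at 25.8 and 20.7 FPKM against 11.7 and 23.4 FPKM, and sqs1 was under 1 FPKM in all 14. For all 3 members the 2 groups did not overlap, and the lower wild type value was in replicate 2, the shallow library. Without that library none of the 3 passed, with log2 differences of 0.75 for SPNCRNA.134, 0.86 for SPNCRNA.1135 and 0.66 for SPNCRNA.1428 (limma adjusted p = 0.114, 0.156 and 0.136).

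Of the members that fell there, SPNCRNA.841, opposite ptf1 and ppa1, had 52.6 and 52.8 FPKM against 94.1 and 114 FPKM in wild type, a log2 difference of -0.96 (SE 0.219, limma adjusted p = 0.0152). SPNCRNA.702, opposite the septin gene spn2, had 47.4 and 39.0 FPKM against 68.0 and 108 FPKM (-0.98, SE 0.270, limma adjusted p = 0.0371). SPNCRNA.1412, opposite the sterol synthesis gene erg27, had 40.0 and 31.7 FPKM against 72.2 and 61.4 FPKM (-0.89, SE 0.243, limma adjusted p = 0.0363). SPNCRNA.925, opposite SPAC8C9.04, had 64.2 and 65.2 FPKM against 117 and 108 FPKM (-0.79, SE 0.226, limma adjusted p = 0.0422). The opposite gene spn2 was below wild type there too, at 0.858 and 2.04 FPKM against 4.37 and 8.24 FPKM. The gene erg27 was above it, at 1.60 and 0.948 FPKM against 0.892 and 0 FPKM. Both ptf1 and ppa1 overlapped wild type, and SPAC8C9.04 was listed at 0 in all 14 libraries. The 4 members also had groups that did not overlap. Of the 7, 5 kept the call in 1 of the 4 fits that left out a library, the one without wild type replicate 1, and SPNCRNA.1412 and SPNCRNA.925 in none of them.

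**Figure D5:**
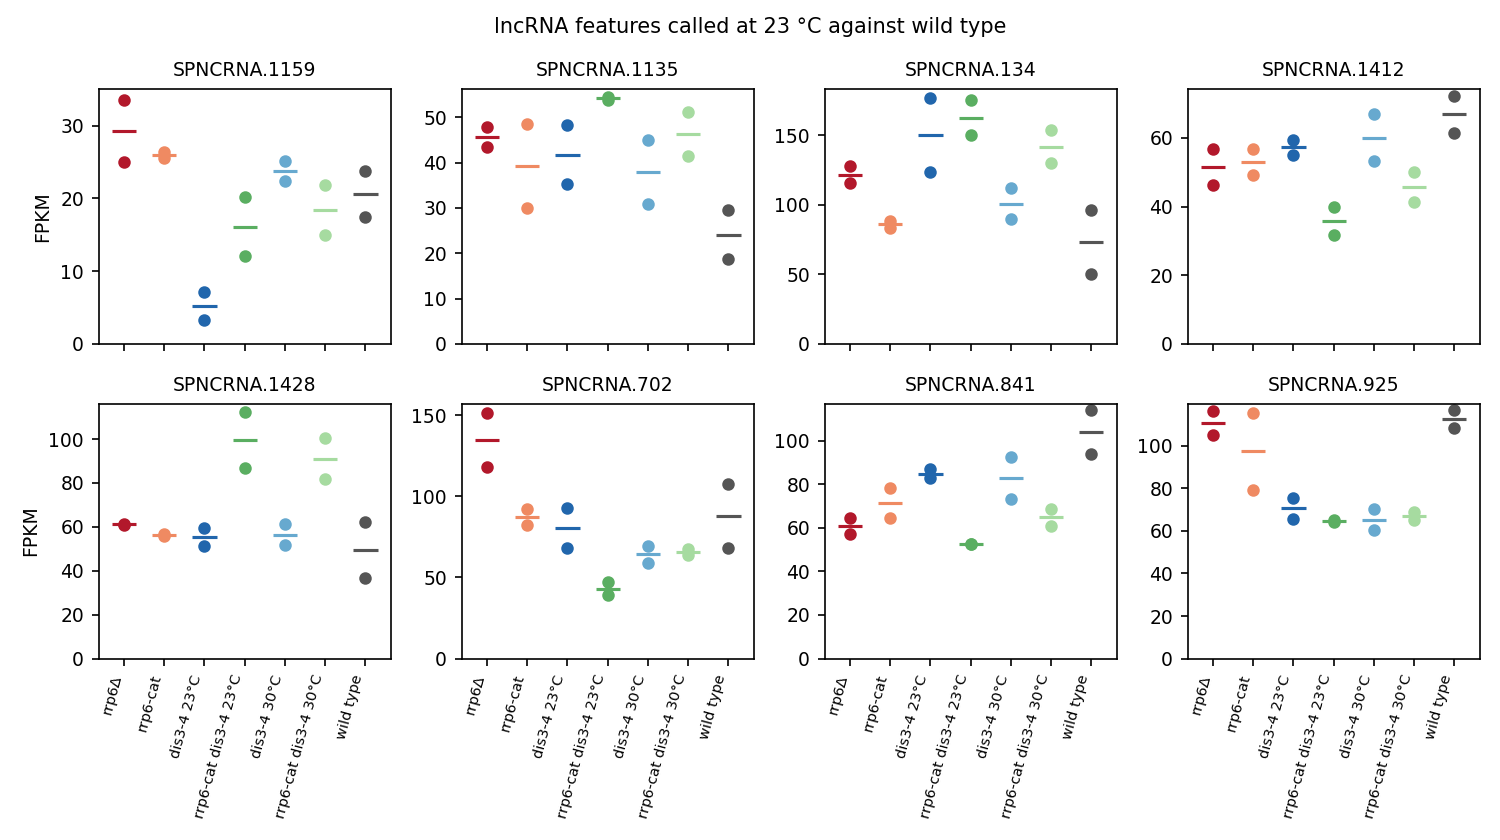
FPKM of the 8 members called against wild type at 23 °C in each library (points) with the mean of each group (lines), wild type at the right. SPNCRNA.1159 is lowest in dis3-4 at 23 °C, and the other 7 panels show rrp6-cat dis3-4 at 23 °C above or below both wild type libraries.

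Neither group of the comparison of rrp6-cat dis3-4 with dis3-4 at 23 °C was used by the rule. The rule did keep members near wild type in the same strains after the move to the higher temperature. A low count of members is thus in part fixed by the rule here too, and nothing further about the members is read from it. In this comparison 0 of 368 members were called by limma, where 0.986% of all features were, 0.723% higher and 0.263% lower. The unadjusted p was under 0.05 for 34 of the 368 members and 766 of the 6083 features. The median difference was 0.06 over members and 0.10 over all features on the log2 scale. SPNCRNA.922, opposite rqc1, came closest, and was picked out after its values were seen. It had 74.1 and 76.9 FPKM in rrp6-cat dis3-4, against 36.6 and 28.4 FPKM in dis3-4, a log2 difference of 1.20 (SE 0.258, limma adjusted p = 0.0524). The adjusted p ranged from 0.0179 to 0.381 over 12 alternatives.

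The move from 23 °C to 30 °C called no member. In dis3-4 0 members were called by limma, where 0% of all features were. In rrp6-cat dis3-4 0 were called, where 0% of all features were. For the difference of the temperature effects between the strains 0 were called, where 0% of all features were. In the same order 8, 4 and 7 members had an unadjusted limma p under 0.05, beside 273, 96 and 163 of all 6083 features. The median member differed by -0.01 in dis3-4 and by 0.09 in rrp6-cat dis3-4 on the log2 scale, and the median of all features by -0.06 and 0.08. The 30 °C groups were used by the rule and the 23 °C groups were not.

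The exosome's own genes are background for these comparisons. Of 25 genes of the nuclear exosome and its cofactors, 1 rose in dis3-4 at 23 °C against wild type, where 4.39% of all features did, and 3 rose in rrp6-cat dis3-4 at 23 °C, where 9.42% did. These counts are near the background. None of the 25 was called in the other 4 comparisons by limma. The zinc knuckle protein gene air1 rose in both, by 0.89 and 0.86 on the log2 scale (limma adjusted p = 0.0375 and 0.0260). In rrp6-cat dis3-4 at 23 °C mmi1 rose by 1.66 (limma adjusted p = 0.0179) and red1, a gene of the complex that takes meiotic RNA to the exosome, by 1.05 (limma adjusted p = 0.0257). The core subunit gene rrp46 lies opposite a member, SPNCRNA.1377, and had a wild type mean of 20.4 FPKM beside 38.6 FPKM for the lncRNA.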

How the data were processed

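The authors deposited FPKM for 7027 features in 14 polyA libraries. Per the submitters' processing notes the tools were TopHat2 2.1.0, Bowtie2, Cufflinks 2.2.1, Cuffnorm and Cuffdiff, with build ASM294v2. A dUTP kit that keeps strand was used, per the labels. Annotation, scaling, the use of strand in counting and read totals were not given in the sources used here. Neither the 3 libraries with ligated 3′ ends nor the authors' pooled table was used. Members, lists and tests were chosen with earlier results of these data known.

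Here limma 3.58.1 (R 4.3.3) was fitted to log2(FPKM + 1), with 7 group means, an intensity trend and all 14 libraries. A feature entered if it averaged 1 FPKM or more over them, which left 6083. The moderated tests were two-sided, and p-values were adjusted by Benjamini-Hochberg over the 6083 features in each of 6 comparisons. This scale understates fold changes of low features. The fit was tested on simulated data. Every group had the same spread there, so that test cannot show the effect of unequal replicates. With 2 libraries a group, all groups share 1 estimate of the spread, and because wild type replicates differed most, p-values against wild type can be too small. Features were matched by ID to RefSeq ASM294v3 (6854 of 7027, and 365 of 368 members), the source of overlaps, lengths and sequences. No coordinates are printed because the builds differ. Named members were those with a symbol, the 10 highest, the 5 that moved least, those nearest the limits and up to 6 called per direction and comparison. Alternatives changed the limits, pseudocount, filter, scaling, trend, samples in the fit, replicate block and each library.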

Additional observations from a re-analysis of the deposited data

How the results depend on the processing

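The number of members was 128 at a level limit of 50 FPKM and 146 at a fold limit of 0.5, and 267 to 385 with 1 library left out. Without wild type replicate 1, 237 of the 368 remained members, and without wild type replicate 2, 306. In dis3-4 at 23 °C against wild type, called members numbered 4 with quantile normalization (2 higher, 2 lower), 7 with median-ratio size factors (5 higher, 2 lower), 4 with the replicate block, 0 with only the compared groups in the fit and 0 to 33 with 1 library left out. In rrp6-cat dis3-4 at 23 °C against wild type they numbered 15 with quantile normalization (3 higher, 12 lower), 12 with median-ratio size factors (5 higher, 7 lower), 4 with no intensity trend, 0 with only the compared groups, 9 with the replicate block and 0 to 57 with 1 library left out. The 33 and 57 came without wild type replicate 1, which leaves the shallow replicate 2 as the lone wild type library, assumed to vary like the other groups; without replicate 2 both counts were 6. Without replicate 1, and likewise without replicate 2, of rrp6-cat dis3-4 at 23 °C the count was 0. Between rrp6-cat dis3-4 and dis3-4 at 23 °C the count was 1 with a pseudocount of 5, quantile normalization, median-ratio size factors or the replicate block. The cause of these changes was not tested. Quantile normalization moved the median of all features in rrp6-cat dis3-4 at 23 °C against wild type to -0.13, from 0.15 as deposited, and that of the members to -0.08, from 0.09. None of the 8 called members changed sign under any of its 12 alternatives. The main fit did not pair samples by replicate number. Differences of replicate 1 from replicate 2, taken across features, had correlations of -0.15 to 0.31 over 21 pairs of groups (median 0.03). Such correlations cannot exclude a batch shared by replicates of the same number in some groups. The estimated read depth limits the low values of wild type replicate 2.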
